A study of Mus musculus with 18 samples.

Results

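Expression of 9 genes of iron storage and transport was examined on the way from embryonic stem cells to macrophages and during the reprogramming of fibroblasts into blood cells. The genes were chosen by name: *Ftl1*, *Fth1*, *Tfrc*, *Slc11a2*, *Slc11a1*, *Slc40a1*, *Slc25a37*, *Hmox1* and *Ireb2*. All 9 were found in both expression tables, among 20066 genes in the table of stages and 20268 genes in the table of fibroblasts. Values are FPKM, a measure of RNA abundance that corrects for transcript length and sequencing depth.

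The first table covers 5 stages, with 2 replicates each, of a mouse 129 embryonic stem cell line that carries a GFP reporter at *Brachyury* (Bry). The stages were undifferentiated embryonic stem cells (ESC), mesoderm sorted as Bry+ Flk1- (MES), hemangioblasts sorted as Bry+ Flk1+ (HB), hematopoietic progenitors sorted as CD41+ (HP), and macrophages grown from CD41+ cells and expressing CD11b (MAC). Its columns combine the replicates into 1 value per stage, so no replicate error and no test exist for any difference between stages. The authors place hemogenic endothelium between HB and HP, and it was not used here. Below, stages are these 5 only, and HB and HP count as neighbours. The second table holds 8 single libraries of mouse embryonic fibroblasts (MEFs) of the 129 strain, taken from embryos at day 14.5, 4 of them at day 12 and 4 at day 21 of the experiment. They are untreated fibroblasts (uFIB) and fibroblasts given *Scl* and *Lmo2* (SL), *Scl*, *Fli1*, *Gata2* and *Lmo2* (SFGL) or *Fli1*, *Gata2* and *Lmo2* (FGL), where *Scl* is another name of *Tal1*. FLI1, GATA2 and LMO2 were delivered by lentivirus. The fibroblasts were wild type, or from iTal1-2A-GFP embryos in which rtTA and a TRE-TAL1 cassette switch on TAL1 when doxycycline is added, and the labels do not say which library came from which. Cells that carried CD45, CD41, CD31 or CD117 had been sorted away beforehand. The medium described for the transduced cells contained added transferrin and erythropoietin. It also held M-CSF, GM-CSF, thrombopoietin, KIT ligand and several interleukins, which are growth factors of blood cells. Whether uFIB were kept in it is not given in the sources used here, so factors and medium cannot be told apart. The tables were normalized separately, and levels were compared only within a table.

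Cells take up iron bound to transferrin through the transferrin receptor (*Tfrc*), move it out of endosomes through DMT1 (*Slc11a2*), and store the surplus in ferritin, a shell of light (*Ftl1*) and heavy (*Fth1*) chains. Macrophages also recover iron from engulfed red cells: heme oxygenase (*Hmox1*) opens the heme ring, NRAMP1 (*Slc11a1*) moves metal out of the phagosome, and ferroportin (*Slc40a1*) exports iron from the cell. Red cell precursors send iron to the mitochondrion through mitoferrin 1 (*Slc25a37*) for heme synthesis. When iron is scarce, iron regulatory proteins, one of them encoded by *Ireb2*, bind hairpins in mRNA called iron-responsive elements, which blocks translation when the hairpin lies in the 5′ UTR and stabilizes the mRNA when it lies in the 3′ UTR.

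These hairpins could be read in 4 of the 9 genes. They are shown because they divide those 4 by the kind of control that a measurement of RNA can see. The search took an unpaired C, 5 bases, the loop CAGTGN and 5 bases able to pair with the first 5 (G with T allowed), on the sense strand of annotated UTRs (GENCODE M21, GRCm38), with the loop in capitals below. *Ftl1* (chr7:45459779-45459808, minus strand), *Fth1* (chr19:9982731-9982760, plus strand) and *Slc40a1* (chr1:45925465-45925494, minus strand) carried 1 each in the 5′ UTR.
Ftl1: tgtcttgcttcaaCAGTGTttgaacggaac
Fth1: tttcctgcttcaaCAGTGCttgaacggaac
Slc40a1: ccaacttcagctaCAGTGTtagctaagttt
*Tfrc* carried 4 in its 3′ UTR, on the plus strand at chr16:32631218-32631247, chr16:32631597-32631626, chr16:32631662-32631691 and chr16:32631709-32631738.
Tfrc hairpin 1: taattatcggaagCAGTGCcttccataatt
Tfrc hairpin 2: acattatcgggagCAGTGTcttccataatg
Tfrc hairpin 3: tctatatcggagaCAGTGAtctccatatgt
Tfrc hairpin 4: taattatcgggaaCAGTGTttcccataatt
The same search found a match in the 5′ UTR of 31 of 20899 genes (0.148%) and in the 3′ UTR of 129 of 21685 (0.595%). No match was present in the annotated UTRs of *Slc11a2*, *Slc11a1*, *Slc25a37*, *Hmox1* or *Ireb2*, which says only that these letters are not there. Hairpins with a less regular stem would be missed by this search, in these genes and in *Tfrc* alike. FPKM values count RNA, so control of translation through a 5′ hairpin is not visible in them.

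Markers of the labelled populations were checked first. The summed level of 5 stem cell markers came to 638 FPKM in ESC and 0.189 in MAC, that of 4 mesoderm markers to 277 FPKM in MES and 0.0126 in MAC, and that of 10 macrophage markers to between 1.97 and 24.5 FPKM in the other stages against 3272 in MAC. Red cell markers were not limited to mature cells: 8 of them summed to 6904 FPKM in HP, with 5182 from the embryonic globin gene *Hbb-bh1*, against 22.6 in MAC, and ESC listed *Hbb-bh1* at 29.9 FPKM. In the fibroblasts the summed red cell markers were 0.599 and 0.734 FPKM in uFIB, and between 141 and 422 FPKM in the SL and SFGL libraries. The library labelled FGL at day 12 stood apart from the other library of that label. It listed *Tal1*, which was not among its factors, at 7.04 FPKM and red cell markers at 87.0. The library labelled FGL at day 21 listed them at 0.0705 and 1.15, and *Fli1* at 3.35, next to 3.02 in uFIB. FPKM do not separate a factor that was given from the cell's own gene. SL, given neither *Gata2* nor *Fli1*, listed *Gata2* at 68.8 and 62.6 FPKM and *Fli1* at 46.7 and 34.4 (days 12 and 21). Values of the 2 libraries labelled FGL are therefore given one by one. The fit below takes the 2 as 1 group and is not read as showing that either matched uFIB. The number of reads behind a value is not held in the files, and in the fibroblasts the steps between low values placed relative depth between 0.587 and 1.56 times that of uFIB at day 12, with 15.0% to 19.1% of low genes on the step of 1 read.

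Ferritin, the iron store, was the most abundant product of the group in fibroblasts, while in the table of stages the light chain was low before MAC and the heavy chain near 0. *Ftl1* (chr7:45457944-45459884, GRCm38, minus strand) began at 3.44 FPKM in ESC, went through 2.72 (MES), 1.80 (HB) and 4.43 (HP), and ended at 30.9 FPKM in MAC. *Fth1* (chr19:9980598-9985098, plus strand) was listed at 0 in ESC and MES, and at 0.0143 (HB), 0.0137 (HP) and 0.0541 FPKM (MAC) afterwards. The light chain was thus highest in MAC, at 6.98 times HP. Here and below, more cells that express a gene and more RNA per cell cannot be told apart. The heavy chain was below 0.1 FPKM throughout, which cannot be read as the level of that gene. Its single row in the table begins at the upstream start of the locus, whereas the RefSeq coding transcript starts at 9982646 on chromosome 19. For the light chain, 90.6% of the 919 stretches of 50 bases, the length of the reads, also occur in 17 other annotated genes, and the authors kept only reads with a single position. *Gapdh* was likewise listed at no more than 1.57 FPKM and *Ppia* at no more than 2.35, while *Actb* reached between 1599 and 4112. Among the 40 most abundant fibroblast genes that the table of stages lists, 10 stayed under 5 FPKM in all 5 stages. The part of shared sequence in these values was not tested, and the ratio of light to heavy chain was not formed for the stages.

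**Figure D1:**
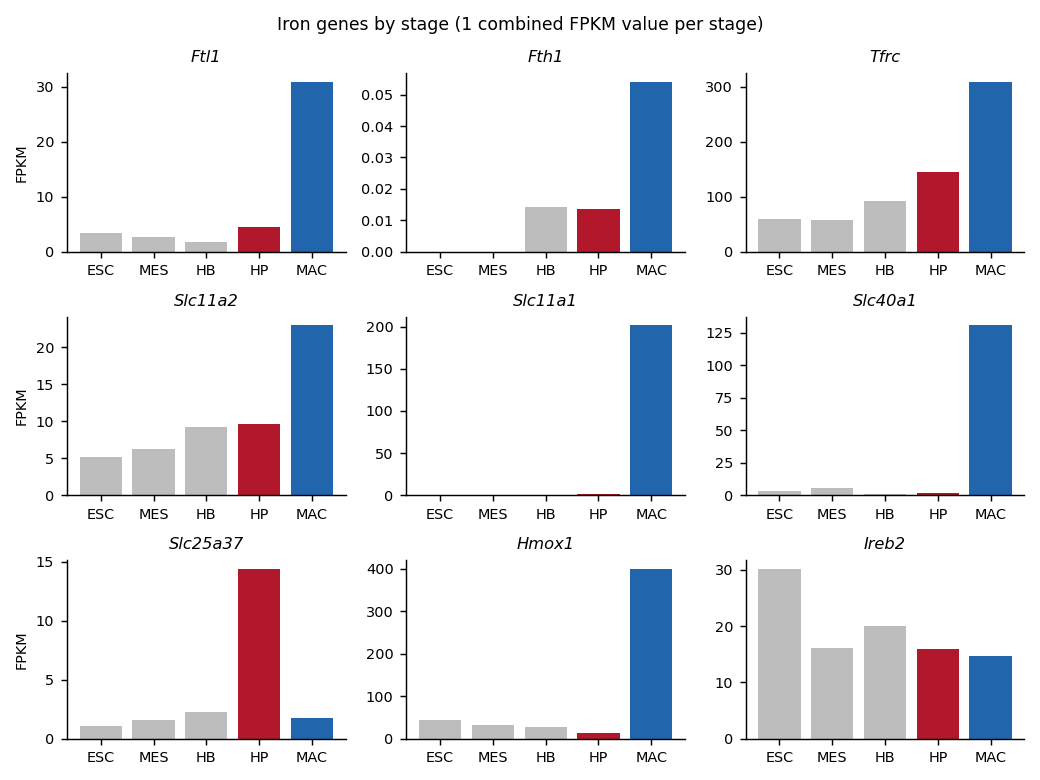
FPKM of the 9 iron genes in ESC, MES, HB, HP and MAC, with 1 bar for each stage (HP red, MAC blue, others grey), a separate linear axis from 0 for each gene, and no error bars because the replicates are combined. The 6 genes *Ftl1*, *Tfrc*, *Slc11a2*, *Slc11a1*, *Slc40a1* and *Hmox1* stand highest in MAC by at least 2-fold over HP, *Slc25a37* stands highest in HP at 14.4 FPKM, *Ireb2* in ESC at 30.1 FPKM, and the axis of *Fth1* ends below 0.1 FPKM.

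RNA of the transferrin receptor was abundant at every stage and highest in MAC. *Tfrc* (chr16:32608920-32632794, plus strand) measured 58.8 FPKM in ESC and 58.1 in MES, then 91.9 in HB, 144 at the HP stage and 309 in MAC. It ranked above 95.7% of the expressed genes in ESC, 99.1% in HP and 98.8% in MAC, expressed meaning at least 1 FPKM in any stage. *Slc11a2* (chr15:100387898-100425072, minus strand) stood at 5.23 (ESC), 6.21 (MES), 9.23 (HB), 9.58 (HP) and 22.98 FPKM (MAC). Neither gene changed 2-fold between neighbouring stages up to HP. From HP to MAC *Tfrc* was 1.09 and *Slc11a2* 1.18 higher on log2(FPKM + 1), the scale of all differences below. Those differences depended on the scaling: the median of all 10819 genes with at least 1 FPKM in HP or MAC was 0.45 higher in MAC, relative to which *Tfrc* was 0.64 and *Slc11a2* 0.73 higher, and after scaling to a common upper quartile the differences were 0.36 and 0.49, below 2-fold.

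Genes of iron recycling separated MAC from all other stages. *Slc11a1* (chr1:74375195-74386062, plus strand), the phagosomal metal transporter, began at 0.109 FPKM in ESC, went through 0.0299 (MES), 0.0468 (HB) and 1.01 (HP), and ended at 202 FPKM in MAC. *Slc40a1* (chr1:45908068-45926523, minus strand), the only known iron exporter, measured 3.18 FPKM in ESC and 5.67 in MES, then 0.791 in HB, 1.96 at the HP stage and 131 in MAC. *Hmox1* (chr8:75093621-75100589, plus strand), which breaks down heme, stood at 44.9 (ESC), 31.3 (MES), 28.2 (HB), 12.9 (HP) and 399 FPKM (MAC). The first of these was near 0 before HP, the second was lowest in HB, and the third was already above 40 FPKM in ESC and lowest in HP. From HP to MAC the differences were 6.65 for *Slc11a1*, 5.48 for *Slc40a1*, 4.85 for *Hmox1* and 2.56 for *Ftl1*. After upper-quartile scaling they were 6.001, 4.80, 4.12 and 1.87, all still past 2-fold. These 4 genes moved together with the macrophage markers, of which 10 of 10 were above 1 FPKM in MAC against 5 of 10 in HP, and whose part in these values was not tested.

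Mitoferrin 1 had the opposite pattern, with its highest level in HP. *Slc25a37* (chr14:69241848-69285112, minus strand) began at 1.12 FPKM in ESC, went through 1.60 (MES), 2.29 (HB) and 14.4 (HP), and ended at 1.78 FPKM in MAC. Its difference was 2.23 from HB to HP and -2.47 from HP to MAC, and it was the only member that was highest in HP. Red cell genes had the same high point: *Alas2*, the first enzyme of heme synthesis in red cells, was at 0.858 FPKM in HB, 35.2 in HP and 0.316 in MAC, and *Slc4a1*, the anion exchanger of the red cell membrane, at 0.00528, 12.1 and 0.0543. All 8 red cell markers were above 1 FPKM in HP. The part of red cells among the CD41+ population in this value was not tested.

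The sensor *Ireb2* (chr9:54863789-54912530, plus strand), which encodes iron regulatory protein 2, varied least among the members that were well above 1 FPKM. It measured 30.1 FPKM in ESC and 16.0 in MES, then 20.0 in HB, 15.9 at the HP stage and 14.7 in MAC. Its highest value was 2.05 times its lowest, against 5.32 times for *Tfrc* and 30.9 times for *Hmox1*. ESC was the high stage, and the submitters' processing notes name other tools for ESC (Bowtie and HOMER) than for the other stages (Cufflinks), whose part in this difference was not tested.

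Calls at 2-fold (and 1 FPKM or more in the higher stage) were few before MAC. From ESC to MES no member passed the limit, where 6.94% of 10606 genes were higher and 7.3% lower. From MES to HB, *Slc40a1* alone passed, with a difference of -1.90, where 3.3% of 10211 genes were lower and 2.53% higher. From HB to HP, *Slc25a37* was higher, where 8.86% of 10505 genes were, and *Hmox1* was lower, with a difference of -1.07, where 8.8% were. Relative to the median of all genes, which was lower in HP, *Hmox1* differed by -0.94, and after upper-quartile scaling *Ftl1* and *Slc11a1* were past 2-fold, at 1.03 and 1.02. From HP to MAC, 6 members were higher, where 33.4% of genes were, and *Slc25a37* was lower, where 13.9% were. After upper-quartile scaling 4 members were higher in MAC, where 19.5% of genes were higher and 24.7% lower.

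For members whose level spanned at least 2 on the log2 scale, the 3 genes with the nearest profile over the 5 stages were sought among 7014 genes that reached 10 FPKM in a stage, by the root mean square distance of profiles centred on their own mean. For *Slc11a1* they were *Fcgr2b*, an Fc receptor (distance 0.0719), *Clec4d*, a C-type lectin (0.106), and *Bcl2a1b* (0.108), with 214, 207 and 181 FPKM in MAC, and each at or below 1.26 in HP. For *Tfrc* they were *Tspan14* (0.0803), *Tbc1d9b* (0.0974) and *Commd7* (0.101), and for *Slc25a37* *Slc43a3* (0.119), *Fam109b* (0.164) and *Fads2* (0.282). Nearest to *Hmox1* were *Myo1e* (0.267), *Cadm1* (0.288) and *4930506M07Rik* (0.292), and nearest to *Ftl1* were *Prnp* (0.0952), *Sord* (0.119) and *Mtm1* (0.136). *Slc40a1* had no neighbour as near, since its closest genes *Capg*, *Atf3* and *Ggh* were at 0.398, 0.409 and 0.444. These likenesses rest on 5 points each and describe the table only.

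Other genes of the iron and heme pathways were taken from a list of 50, of which 47 were in the table of stages. Of these, 35 had at least 1 FPKM in HP or MAC. From HP to MAC 15 of the 35 were at least 2-fold higher and 5 lower, where 33.4% and 13.9% of all genes with at least 1 FPKM were. The list median was 0.36 beside 0.45 over all genes, and after upper-quartile scaling 9 were higher and 10 lower. Heme uptake and breakdown was the group with most genes higher, at 5 of the 6 with at least 1 FPKM, or 4 after that scaling. Of all genes 33.4% and 19.5% were higher. In it *Lrp1*, a receptor that takes up heme bound to hemopexin, went from 6.42 FPKM in HP to 175 in MAC, and *Slc48a1*, which exports heme from the phagolysosome, from 8.36 to 103. *Hmox2*, the constitutive heme oxygenase, went from 23.7 to 173, and the biliverdin reductase genes *Blvra* and *Blvrb* from 9.20 to 64.8 and from 56.6 to 151. *Blvrb* was the gene under 2-fold after that scaling.

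Outside heme handling, *Trf*, which encodes transferrin itself, showed the largest difference of the list, from 1.16 FPKM in HP to 546 in MAC. *Steap3*, the endosomal reductase that prepares iron for DMT1, went from 4.41 to 52.6, and *Hfe*, a partner of the transferrin receptor, from 0.530 to 26.3. *Aco1*, which encodes iron regulatory protein 1, went from 12.5 to 40.1, while *Ireb2* differed by -0.10. The 2 regulatory protein genes thus differed in how far apart HP and MAC lay. Of the regulators of *Hmox1*, the activator gene *Nfe2l2* went from 27.4 to 65.0 and the repressor gene *Bach1* from 16.7 to 44.3. Iron-sulphur assembly genes *Iscu* (6.69 to 44.2) and *Nfs1* (12.6 to 33.2) and the NRF2 targets *Slc7a11* (3.004 to 28.5) and *Srxn1* (23.3 to 53.8) were also higher. Of these, *Aco1*, *Nfe2l2*, *Bach1*, *Nfs1* and *Srxn1* were under 2-fold after upper-quartile scaling. Lower in MAC were *Abcb10*, a mitochondrial transporter that binds mitoferrin 1, from 105 to 13.5, and *Slc39a8*, a metal importer, from 30.7 to 5.18.

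**Figure D2:**
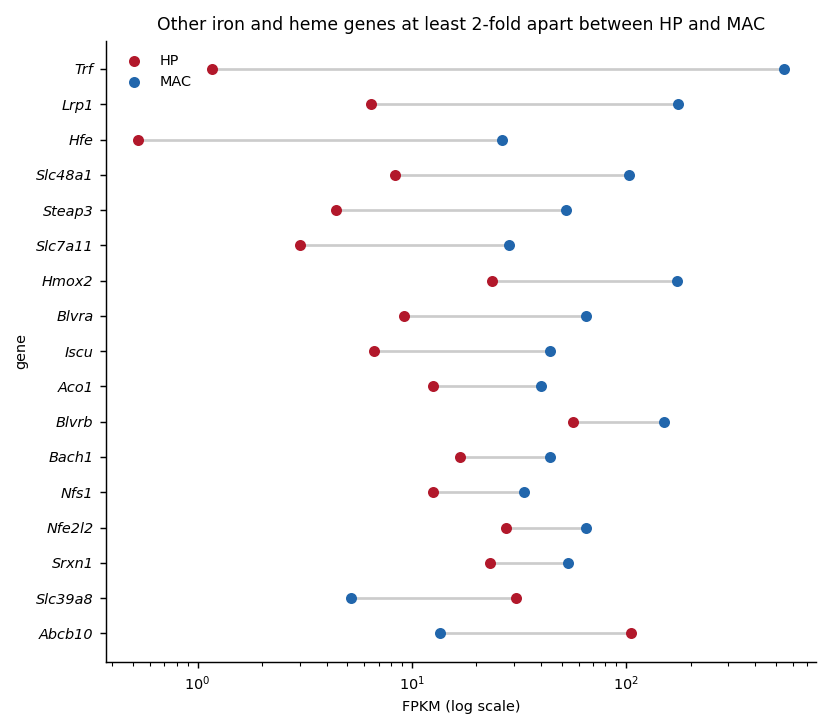
FPKM in HP (red points) and MAC (blue points) of the 17 listed iron and heme genes that were at least 2-fold apart on log2(FPKM + 1) and reached 10 FPKM in the higher stage, on a logarithmic axis and ordered by their difference. Most genes, 15 of 17, lie further right in MAC, with *Trf* at 546 FPKM the furthest, and *Abcb10* and *Slc39a8* lie further right in HP.

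*Abcb10* was also highest in HP, with 12.4 FPKM in MES, 34.4 in HB and 105 in HP. From HB to HP 11 of the 33 listed genes with at least 1 FPKM were higher and 1 lower, where 8.86% and 8.8% of all genes were. The list median was 0.40 beside -0.13 over all genes. The higher genes included *Blvrb* (10.9 to 56.6 FPKM) and *Slc39a8* (11.9 to 30.7), together with the NRF2 targets *Gclm* (9.02 to 42.5), *Srxn1* (8.84 to 23.3) and *Nqo1* (3.08 to 10.1). *Lrp1* was lower, from 14.6 to 6.42 FPKM. *Hmox1*, another NRF2 target, was lower over the same step, as given above.

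Untreated fibroblasts had abundant ferritin and little of the receptor. SL and SFGL cells had more of both, with the receptor differing by the larger factor. *Tfrc* reached 1.78 FPKM in uFIB on day 12, against 32.1 in SL, 18.7 in SFGL and 9.59 in the library labelled FGL, and the corresponding values of day 21 were 2.81, 40.7, 57.2 and 1.81 FPKM. All 4 SL and SFGL libraries were above every other library. How many of all genes separate the libraries in this way was not counted, here and below, so such a separation is not read as particular to the iron genes. The differences from uFIB of the same day were 3.57 and 3.45 for SL and 2.82 and 3.93 for SFGL.

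The only fit with an error of its own took the days as repeats of a treatment, which assumes that an effect was the same on both. There limma on 8 libraries, with 3 residual degrees of freedom and 11989 genes that averaged 1 FPKM or more, put *Tfrc* 3.51 ± 0.77 (SE) above uFIB in SL, with a Benjamini-Hochberg adjusted p of 0.0135. In SFGL it was 3.38 ± 0.77 higher (limma, adjusted p = 0.0132), whereas for FGL, whose libraries lay 1.93 above and 0.44 below uFIB, the estimate was 0.75 ± 0.77 (limma, adjusted p = 0.935) and turned to -0.60 without the library of day 12. All treatments share 1 spread in this fit, so the libraries labelled FGL enter the SE of SL and SFGL. Between the days *Tfrc* differed by -1.91 in FGL, against 0.45 in uFIB, 0.33 in SL and 1.565 in SFGL. Without both libraries labelled FGL, no call of a member in SL or SFGL changed. The calls of *Tfrc* in SL and SFGL also depended on single libraries. In SL the limma adjusted p was 0.0774 without uFIB at day 12, 0.0649 without SL at day 12, 0.0527 without uFIB at day 21 and 0.0749 without SL at day 21. In SFGL it was 0.0749 without uFIB at day 12, 0.0505 without uFIB at day 21 and 0.0789 without SFGL at day 21, and the difference stayed between 2.41 and 3.74 in those 7 fits. Nothing states that libraries came from separate cultures, so these p-values measure the spread between these libraries, which may be technical. *Tfrc* is the member with the 3′ hairpins shown above, and FPKM values do not separate new transcription from a longer life of the mRNA.

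*Ftl1* stood on day 12 at 2776 (uFIB), 7075 (SL), 8033 (SFGL) and 2618 FPKM (labelled FGL), and on day 21 at 3303, 5299, 6203 and 2935 FPKM in that order. The SL and SFGL libraries again lay above all others. Over both days *Ftl1* was 1.02 ± 0.21 (SE) higher in SL (limma, adjusted p = 0.0117) and 1.22 ± 0.21 higher in SFGL (limma, adjusted p = 0.00522). At days 12 and 21 the differences were 1.35 and 0.68 in SL and 1.53 and 0.91 in SFGL. In SL the adjusted p of limma was 0.0704 without uFIB at day 12 and 0.0809 without SL at day 12, and with no limit on FPKM it was 0.110 in SL and 0.0635 in SFGL. The light chain is the member that shares most sequence with other genes, and how reads with several positions were treated in this table is not given in the sources used here.

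*Fth1* passed no test. It was measured at day 12 at 1478 FPKM without factors, 2412 with SL, 1903 with SFGL and 1394 in the library labelled FGL, followed at day 21 by 2060, 2417, 2247 and 2137 FPKM. The difference over both days was 0.47 ± 0.17 (SE) in SL (limma, adjusted p = 0.068) and 0.24 ± 0.17 in SFGL (limma, adjusted p = 0.268), neither past the threshold of 0.05. Light chain RNA per heavy chain RNA was accordingly 1.88 without factors at day 12, 2.93 with SL and 4.22 with SFGL, and at day 21 it was 1.60, 2.19 and 2.76. The libraries labelled FGL had 1.88 and 1.37, each within 1.2-fold of uFIB. Ferritin as a whole took between 1.10% and 1.44% of all FPKM in uFIB and between 2.00% and 2.09% in SL and SFGL.

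**Figure D3:**
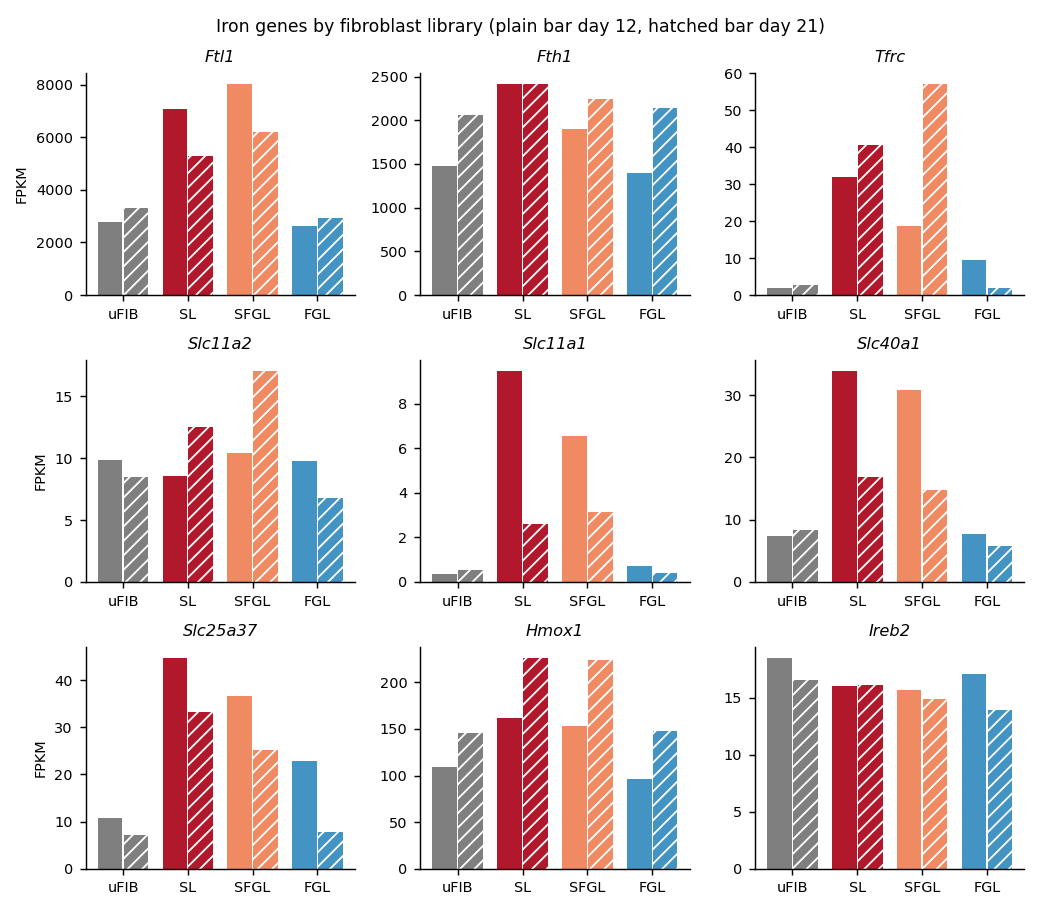
FPKM of the 9 iron genes in the 8 fibroblast libraries, with plain bars for day 12 and hatched bars for day 21, colours for the treatments uFIB, SL, SFGL and FGL, and a linear axis from 0 for each gene. *Tfrc*, *Ftl1*, *Slc11a1*, *Slc40a1*, *Slc25a37* and, within each day, *Hmox1* are higher in SL and SFGL than in uFIB and FGL, while *Ireb2* stays between 14.0 and 18.5 FPKM. The share of all genes with such a separation was not counted.

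Set against the receptor, ferritin was lower in the libraries with blood genes. The summed ferritin FPKM per FPKM of *Tfrc* was 2385 and 1908 in uFIB at days 12 and 21, 296 and 190 in SL, and 532 and 148 in SFGL. The libraries labelled FGL differed from each other, with 419 at day 12 and 2795 at day 21. Ratios within a library do not depend on its scaling. In 5 of the 6 transduced libraries the ratio was more than 2-fold below uFIB of the same day, the exception being the library labelled FGL at day 21.

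**Figure D4:**
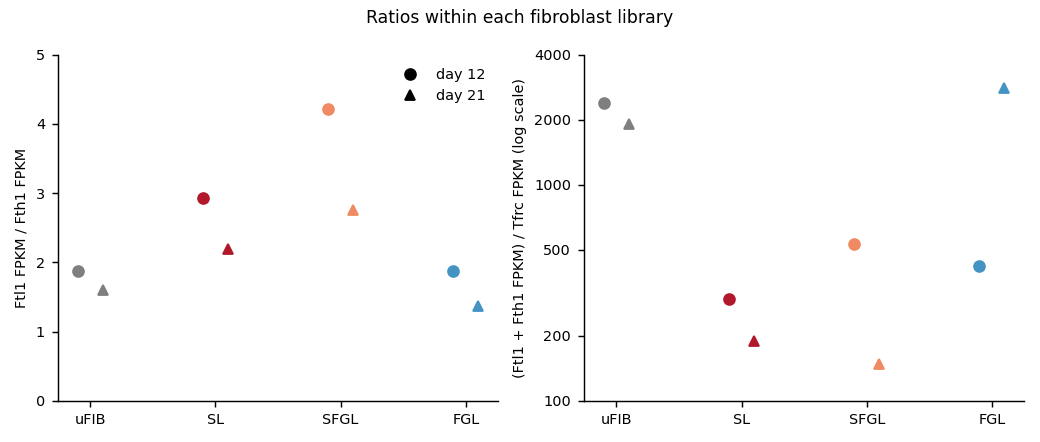
Left, *Ftl1* FPKM divided by *Fth1* FPKM on a linear axis from 0, and right, the summed ferritin FPKM divided by *Tfrc* FPKM on a logarithmic axis, for each treatment at day 12 (circles) and day 21 (triangles), 1 point per library. The left ratio runs from 1.37 to 4.22 with SFGL at day 12 highest, and the right ratio is at least 1908 in uFIB and in the library labelled FGL at day 21 and at most 532 in the other 5 libraries.

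*Slc11a2*, the other gene of uptake, reached 9.86 FPKM in uFIB on day 12, against 8.60 in SL, 10.5 in SFGL and 9.76 in the library labelled FGL, and the corresponding values of day 21 were 8.49, 12.5, 17.1 and 6.80 FPKM. The groups overlapped at day 12 and were apart at day 21. No contrast passed the threshold, with differences of 0.17 ± 0.30 (SE) in SL (limma, adjusted p = 0.659) and 0.50 ± 0.30 in SFGL (limma, adjusted p = 0.193).

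*Slc11a1* and *Slc40a1*, genes of iron recycling, were higher in SL and SFGL and had lower values at day 21 than at day 12. *Slc11a1* stood on day 12 at 0.338 (uFIB), 9.48 (SL), 6.55 (SFGL) and 0.722 FPKM (labelled FGL), and on day 21 at 0.546, 2.61, 3.15 and 0.399 FPKM in that order. *Slc40a1* was measured at day 12 at 7.35 FPKM without factors, 33.9 with SL, 30.8 with SFGL and 7.65 in the library labelled FGL, followed at day 21 by 8.40, 16.9, 14.8 and 5.82 FPKM. In each the SL and SFGL libraries were above the other 4, and their day 21 values were below those at day 12. The differences between the days were -1.54 for *Slc11a1* in SL, -0.86 in SFGL, and -0.96 and -1.005 for *Slc40a1*, while uFIB differed by 0.21 and 0.17.

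Over both days *Slc11a1* was 2.10 ± 0.41 (SE) higher in SL (limma, adjusted p = 0.00959) and 1.96 ± 0.41 higher in SFGL (limma, adjusted p = 0.00999). *Slc40a1* was 1.496 ± 0.31 higher in SL (limma, adjusted p = 0.0109) and 1.34 ± 0.31 higher in SFGL (limma, adjusted p = 0.0134). The fit assumes an equal effect on both days, which these 2 genes did not show. At days 12 and 21 *Slc11a1* differed from uFIB by 2.97 and 1.225 in SL and by 2.50 and 1.43 in SFGL. *Slc40a1* differed by 2.06 and 0.93 in SL and by 1.93 and 0.75 in SFGL. The estimates over both days average unlike values, and the change between the days enters their error. Without SFGL at day 12 the adjusted p of limma in SFGL was 0.0661 and 0.0861 for the genes in turn, without uFIB at day 12 it was 0.0516 and 0.0542, and without SL at day 12 that of *Slc40a1* in SL was 0.0739. Macrophage markers were partly present beside them: 10 listed genes summed to 245 and 276 FPKM in SL and SFGL at day 12 and to 114 and 176 at day 21, against 10.8 and 10.7 in uFIB. Of these, *Fcgr3* made up 142 FPKM in SL at day 12, whereas the complement genes *C1qa*, *C1qb* and *C1qc*, which in the separately normalized stages were above 1 FPKM in MAC alone, did not exceed 0.0824 in any SL or SFGL library. A list of 7 neutrophil genes, made after the values were seen, summed to between 9004 and 35370 FPKM in SL and SFGL, against 7.09 and 241 in uFIB. The part of these cell types in the 2 iron genes was not tested.

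*Slc25a37* was the member with the smallest adjusted p in SL and SFGL. It reached 10.8 FPKM in uFIB on day 12, against 44.8 in SL, 36.7 in SFGL and 22.9 in the library labelled FGL, and the corresponding values of day 21 were 7.07, 33.3, 25.2 and 7.80 FPKM. Only the library labelled FGL at day 12 lay between the low and the high libraries. Over both days the gene was 2.02 ± 0.26 (SE) higher in SL (limma, adjusted p = 0.00274) and 1.69 ± 0.26 higher in SFGL (limma, adjusted p = 0.00363), and no library left out ended either call.

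Red cell markers were high in the libraries where *Tfrc* and *Slc25a37* were high. All 8 listed in the table were above 1 FPKM in SL, SFGL and the library labelled FGL at day 12, and none was in uFIB or in the library labelled FGL at day 21. Their sums were 278 and 401 FPKM in SL, 141 and 422 in SFGL, and 87.0 and 1.15 in the libraries labelled FGL, at day 12 and day 21 in turn. Between these days the sum and *Tfrc* were higher at day 21 in SL and SFGL, whereas *Slc25a37* was lower in both. The sum did not hold for each marker in SL. There *Alas2* went from 53.2 to 43.35 FPKM and *Slc4a1* from 68.0 to 65.4, while the other listed red cell markers were higher at day 21. In SFGL *Alas2* and *Slc4a1* were higher at day 21 too. For *Tfrc* the 3 nearest profiles over the 8 libraries, among 7902 genes, were *Ermap* (distance 0.226), which encodes an erythroid membrane protein, *Cldn13* (0.231) and *Add2* (0.255), a gene of the red cell membrane skeleton. For *Slc25a37* they were *Ly75* (0.160), *Kif21b* (0.194) and *Itprip* (0.225). *Slc40a1* had *1700020L24Rik* (0.1), *Grk6* (0.145) and *Ndc80* (0.153) nearest, and *Slc11a1* had *Dck* (0.176), *Msrb1* (0.184) and *Stk10* (0.198). The part of red cells in *Tfrc* and *Slc25a37* was not tested.

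*Hmox1* was already abundant in untreated fibroblasts and differed by a small, even amount. It stood on day 12 at 109 (uFIB), 162 (SL), 153 (SFGL) and 96.0 FPKM (labelled FGL), and on day 21 at 145, 226, 224 and 148 FPKM in that order. Within each day SL and SFGL lay above uFIB and FGL, and every treatment was higher at day 21 than at day 12. The difference over both days was 0.60 ± 0.10 (SE) in SL (limma, adjusted p = 0.00508) and 0.55 ± 0.10 in SFGL (limma, adjusted p = 0.00534). Without a term for the day the adjusted p of limma was 0.161 and 0.179.

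*Ireb2* again varied least. It was measured at day 12 at 18.5 FPKM without factors, 16.0 with SL, 15.7 with SFGL and 17.1 in the library labelled FGL, followed at day 21 by 16.6, 16.1, 14.9 and 14.0 FPKM. The groups lay within 1.33-fold of each other. The differences from uFIB over both days were -0.12 ± 0.11 (SE) in SL, -0.19 ± 0.11 in SFGL and -0.17 ± 0.11 in FGL (limma, adjusted p = 0.394, 0.185 and 0.931).

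**Figure D5:**
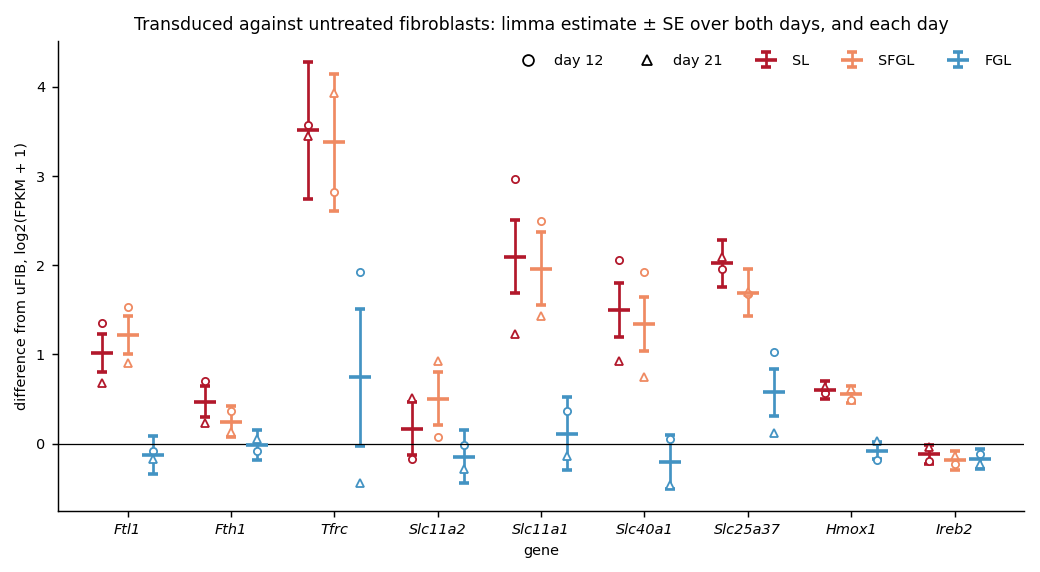
Difference from uFIB on log2(FPKM + 1) of the 9 iron genes for SL, SFGL and FGL, with the limma estimate over both days as a bar, its SE as whiskers, and the single days as open circles (day 12) and triangles (day 21). *Tfrc* has the largest estimates, at 3.51 in SL and 3.38 in SFGL, and in FGL its circle lies at 1.93 and its triangle at -0.44.

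Across the members, 6 of 9 passed the limma threshold upward in SL, where 25.4% of 11989 genes did, and the same 6 did so in SFGL, where 27.9% did. These were *Ftl1*, *Tfrc*, *Slc11a1*, *Slc40a1*, *Slc25a37* and *Hmox1*. No member passed it downward, where 27.1% of genes did in SL and 30.8% in SFGL. In the contrast that pools the 2 libraries labelled FGL no member passed it, where limma called 2 genes (0.0167%) upward and none downward, with 179 and 286 at an unadjusted p under 0.05. Left out of the fit, the library labelled FGL at day 12 changed none of these calls.

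By the 2-fold limit within a day, with no test, SL at day 12 had 5 members higher than uFIB, where 14.2% of 12328 genes were: *Ftl1*, *Tfrc*, *Slc11a1*, *Slc40a1* and *Slc25a37*. SFGL at day 12 had the same 5, where 14.7% of genes were higher. At day 21, *Tfrc*, *Slc11a1* and *Slc25a37* were past the limit in SL, where 11.9% of genes were, and in SFGL, where 13.9% were. None was lower in these 4 comparisons, where 13.5%, 17%, 12.3% and 15.9% of genes were lower. The library labelled FGL at day 12 had *Tfrc* and *Slc25a37* higher, by 1.93 and 1.02, where 2.96% of genes were, and none lower, where 0.302% were. The library labelled FGL at day 21 had no member past the limit, where 0.479% of genes were higher and 0.376% lower.

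Between the days, no member differed 2-fold in uFIB, where 1.87% of 11735 genes were higher at day 21 and 1.28% lower. In SL, *Slc11a1* was lower at day 21, where 2.93% of genes were, and none was higher, where 1.77% were. In SFGL, *Tfrc* was higher by 1.56, where 2.2% of genes were, and *Slc40a1* was lower, where 2.75% were. In the libraries labelled FGL, *Tfrc* and *Slc25a37* were lower at day 21, by differences of -1.91 and -1.44, where 4.06% of genes were, and none was higher, where 3.24% were.

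Of the other listed iron and heme genes 41 were tested in the fibroblasts. In SL 18 were higher and 7 lower by limma, where 25.4% and 27.1% of all 11989 genes were, with a median of 0.28 beside -0.03 over all genes. In SFGL 17 were higher and 9 lower, where 27.9% and 30.8% were, with a median of 0.27. None passed in the contrast that pools the 2 libraries labelled FGL, where limma called 0.0167% of all genes higher and the list median was 0.01. The part of blood cell types in these counts was not tested.

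Genes that release or sense iron were among those that rose. *Ncoa4*, the receptor that takes ferritin to the lysosome, went from 33.6 FPKM in uFIB to 117 in SL and 136 in SFGL at day 12, a difference of 1.45 ± 0.18 (SE) and 1.70 ± 0.18 over both days (limma, adjusted p = 0.00228 and 0.00108). *Fbxl5*, which marks iron regulatory protein 2 for degradation when iron is plentiful, went from 18.1 to 54.7 and 44.0 (limma, adjusted p = 0.00347 and 0.00383). *Aco1* fell, from 22.4 FPKM in uFIB to 9.41 in SFGL at day 12 and from 30.5 to 10.6 in SL at day 21 (limma, adjusted p = 0.00506 in SL and 0.00225 in SFGL). *Ireb2* passed no test, whereas the ligase gene for its product and the gene of the other regulatory protein did, in opposite directions.

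Several uptake genes of fibroblasts fell. *Scara5*, a ferritin receptor of stromal cells, went from 20.0 FPKM in uFIB to 2.85 in SL and 1.61 in SFGL at day 12 (limma, adjusted p = 0.00886 and 0.00432 over both days). *Steap3* went from 75.1 to 27.8 and 19.1 (limma, adjusted p = 0.00221 and 0.00122), and *Slc39a14*, an importer of iron not bound to transferrin, from 23.7 to 8.89 and 9.63 at day 21 (limma, adjusted p = 0.0144 and 0.00845). *Steap4* fell in SFGL (limma, adjusted p = 0.0304), from 66.5 FPKM in uFIB to 11.9 at day 21. *Trf* fell in SFGL as well, from 17.5 to 7.18 at day 21 (limma, adjusted p = 0.00836). *Hfe*, listed with hepcidin control, went from 12.4 to 2.67 and 1.90 at day 21 (limma, adjusted p = 0.0238 in SL and 0.00646 in SFGL). Fibroblast markers were lower in the same libraries, with 8 genes summing to 7952 and 6029 FPKM in uFIB, 2641 and 1613 in SL and 2149 and 1280 in SFGL, and their part was not tested.

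Some uptake genes rose. *Lcn2*, which binds iron-carrying siderophores and is also a protein of neutrophil granules, went from 43.6 FPKM in uFIB to 1525 in SL and 800 in SFGL at day 12 (limma, adjusted p = 0.00392 and 0.00647), and to 129 in the library labelled FGL. It was at 113 FPKM in uFIB at day 21, where the neutrophil genes above were also higher. *Slc39a8* went from 1.94 to 12.4 FPKM in SFGL at day 21 (limma, adjusted p = 0.0135). *Tfr2*, the second transferrin receptor gene, stayed under 10 FPKM and was chosen after its values were seen, with differences of 1.94 ± 0.23 (SE) in SL and 2.35 ± 0.23 in SFGL (limma, adjusted p = 0.00218 and 0.000947).

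In the mitochondrion *Abcb10* went from 5.56 FPKM in uFIB to 20.7 in SL and 17.3 in SFGL at day 12 (limma, adjusted p = 0.00607 and 0.00442), alongside *Slc25a37*, and *Glrx5*, of iron-sulphur assembly, from 36.1 to 93.1 in SFGL at day 21 (limma, adjusted p = 0.00417). Among heme genes *Blvrb* rose from 25.3 to 122 and 101 at day 12 (limma, adjusted p = 0.00125 and 0.000762), whereas *Lrp1*, which was higher in MAC, fell from 159 to 48.5 and 43.9 (limma, adjusted p = 0.00145 and 0.000681). Of the 6 further NRF2 targets listed, 4 had larger estimates than *Hmox1* and 2 smaller ones, and differences between genes were not tested. *Nqo1* was 2.25 ± 0.18 (SE) higher in SL and 2.03 ± 0.18 in SFGL (limma, adjusted p = 0.00108 and 0.000747), *Gclm* 1.78 and 1.64 (limma, adjusted p = 0.00138 and 0.00109), and *Slc7a11* 3.10 and 2.90 (limma, adjusted p = 0.00356 and 0.00337). *Gclc* was 0.99 and 0.87 higher (limma, adjusted p = 0.00149 and 0.00139). *Txnrd1* and *Srxn1* were on the list but past 2-fold in no fibroblast comparison, and they are named here after their values were seen. *Txnrd1* differed by 0.58 and 0.47 (limma, adjusted p = 0.0181 and 0.0323), and *Srxn1* by 0.48 and 0.26, the latter not past the threshold (limma, adjusted p = 0.0119 and 0.0679). The regulator *Nfe2l2* differed by 0.60 and 0.39 (limma, adjusted p = 0.0113 and 0.0401).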

How the data were processed

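RNA-seq of 18 mouse samples was used, 10 of 5 stages and 8 of fibroblasts, grouped from their labels. All values are FPKM as the authors deposited them. For the stages, the authors aligned 50-base SOLiD reads with SHRiMP to mm10 (GRCm38), kept reads with a single position, removed duplicates with Picard and ran Cufflinks on RefSeq coding genes, which gave 1 FPKM value per transcription start site with the replicates combined. Per the labels, ESC reads went through Bowtie and HOMER and fibroblast reads through TopHat and Cufflinks, and versions are not given in the sources used here. Removing duplicates and reads with several positions lowers abundant genes and genes with copies. The table of stages held 1 further column of values, for hemogenic endothelium, which was mapped to no sample here and not used.

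Start sites were summed per gene name, each member having 1. Differences are on log2(FPKM + 1) and were called at 2-fold with at least 1 FPKM in the higher column. Fibroblast treatments were tested with limma 3.58.1 in R 4.3.3 (lmFit and eBayes with trend, terms for treatment and day) over genes that averaged 1 FPKM or more, with Benjamini-Hochberg adjustment over all genes of a contrast. FPKM do not hold read numbers, so no count test and no counting interval was made. On simulated data limma recovered 200 of 200 changed genes in SL against uFIB, with 14 false calls among 8164 genes. This was run for that contrast alone, and recovery of effects that differ between the days was not tested.

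Named were all 9 members, other listed genes past 2-fold with at least 10 FPKM in the higher column, the 3 nearest profiles of members spanning at least 2 on the log2 scale, and cell type markers. Members and lists were chosen with earlier results of these data known, and the neutrophil, transduced factor and abundant gene lists after values were seen. The listed genes *Flvcr1* and *Flvcr2* were not analysed here. Shared sequence was searched over 50-base stretches and UTR hairpins in GENCODE M21 transcripts. Alternatives were pseudocounts of 0.1 and 0.001, upper-quartile scaling, limits of 1.5-fold and 4-fold, no limit on FPKM, the highest start site alone, the mean of both uFIB libraries as reference, no term for the day and each library left out. Python 3.11.15, NumPy 2.4.6, pandas 2.3.3 and matplotlib 3.10.9 were used.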

Additional observations from a re-analysis of the deposited data

Results flagged for a closer look

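*Tfrc* moved in opposite directions in the libraries labelled FGL on the 2 days, and was singled out because both changes were at least 1.3-fold. At day 12 it was 1.93 above uFIB on log2(FPKM + 1), at 9.59 against 1.78 FPKM, and at day 21 the difference was -0.437, at 1.81 against 2.81 FPKM. With 1 library per treatment and day the difference between the days was not tested. The library labelled FGL at day 12 also held red cell markers at a sum of 87.0 FPKM and *Tal1* at 7.04 FPKM, against 1.15 and 0.0705 FPKM at day 21, and the part of these in the difference was not tested.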

How the results depend on the processing

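No paired analysis was possible because the replicate numbers of the labels belong to the stages, whose columns combine them. In the fibroblasts the day entered every limma fit as a block, except in the repeat without it. Of 801 repeats of 153 member differences under other settings, 740 kept their sign and their side of the limit, 21 were weaker and 17 stronger, and 23, in 14 differences, changed sign, 0 of them past a limit before or after. Upper-quartile scaling turned the log2 difference of *Fth1* from HB to HP to 0.00032, of *Slc11a2* in FGL at day 12 to 0.042, of *Fth1* and *Hmox1* in FGL at day 21 to -0.055 and -0.084, and of *Ireb2* between the days in SFGL to 0.034. The mean of both uFIB libraries as reference turned *Slc11a2* and *Slc40a1* in FGL at day 12 to 0.080 and -0.037, and *Slc25a37* in FGL at day 21 to -0.17. With 1 library left out, the limma estimate ran from -0.080 to 0.41 for *Slc11a2* in SL. For FGL it ran from -0.20 to 0.17 for *Fth1*, -0.36 to 0.10 for *Ftl1*, -0.44 to 0.66 for *Slc11a1*, -0.54 to 0.24 for *Slc11a2*, -0.68 to 0.26 for *Slc40a1* and -0.60 to 2.09 for *Tfrc*. Without the library labelled FGL at day 12, *Fth1*, *Ftl1* and *Tfrc* stood at 0.17, 0.045 and -0.60. Counts of members called moved with the fold limit: between stages from 10 to 17 at 1.5-fold and 6 at 4-fold, against uFIB within a day from 18 to 8 at 4-fold, and between the days from 5 to 10 at 1.5-fold and 0 at 4-fold. For the other iron and heme genes, calls over all comparisons went from 115 to 196 at 1.5-fold and 40 at 4-fold. The 12 limma calls of members became between 7 and 12 with 1 library left out. They became 7 without uFIB at day 12, the largest loss, and stayed at 12 without either library labelled FGL. Without the library labelled FGL at day 12, calls against uFIB went from 18 to 16, and without *Ftl1* and *Fth1* calls between stages went from 10 to 9, both choices made after seeing the data. *Ftl1*, *Slc11a1* and *Slc40a1* from HB to HP were under 2-fold as reported and over it with a pseudocount of 0.1, at 1.25, 2.92 and 1.21. The stages could not be repeated without single replicates. Unknown depth limits the low values, *Slc11a1* before HP and *Fth1* in the stages above all.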
